A study of Mus musculus with 12 samples.

Results

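Genes that spread over more than 150 kb of the mouse genome were followed in NIH/3T3 cells, an immortalised line of mouse embryonic fibroblasts, in polyadenylated RNA after 8 h of drug treatment. One group had the vehicle DMSO. The others had carfilzomib at 200 nM (CFZ), doxorubicin at 5 µM (DOX) or the 2 drugs at these doses together (CFZ-DOX), and each group held 3 libraries of wild-type genotype. Carfilzomib is an irreversible proteasome inhibitor, while doxorubicin, an anthracycline, binds between DNA bases and traps topoisomerase II on broken DNA. Whether replicates came from separate cultures is not given in the labels, and the spread that p-values rest on may be technical. It is a single line, and no other cell type was compared.

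A gene's span is the distance from its first to its last annotated base, introns included. Genes were kept when the span was at least 150 kb and the mean level over the 3 DMSO libraries was at least 5 CPM, counts scaled to the library total. This left 674 of 56980 gene IDs, out of 1662 with such a span and 9835 at such a level. All 674 passed the filter on low counts. The 3258 genes of 10 to 30 kb at the same level are set beside them. Since the DMSO libraries chose the genes, each comparison with DMSO is given as a description. CFZ-DOX against CFZ and CFZ-DOX against DOX use no DMSO library and are tested. At the edge of the span rule lay Elavl2 (150023 bases) and Rspo2 (150033) inside, and Rps6ka6 (149768) and Tle4 (149902) outside. At the edge of the level lay Enox1 (5.20 CPM) and Gtdc1 (5.28) inside, and Clvs1 (4.98) and Rad51b (4.97) outside.

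A gene is transcribed from its start to its end by a single RNA polymerase II complex, so a longer gene takes more time to copy. Torsion builds up in the DNA ahead of and behind the polymerase, and topoisomerases I and II relax it. Introns make up most of a long gene and are removed from the RNA, and the mature transcript need not be much longer than that of a short gene. Long genes in fibroblasts include many for adhesion, matrix, cytoskeleton and signalling proteins.

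The 674 genes had a median span of 223574.5 bases, from 150023 to 2960899. Introns took a median 96.3% of the span, against 75.8% in the genes of 10 to 30 kb. The long genes also had more exon sequence, with a median of 9308.5 bases and 22 exon blocks against 4343 bases and 9 blocks. In an older annotation, GENCODE M21 on GRCm38, 668 were protein coding and 670 of the 673 that matched also reached 150 kb. Chromosome 2 held the most of them, 66, and chromosome 19 the fewest, 18. Exons of 257 long genes (38.1%) and 1218 of the shorter ones (37.4%) overlapped an exon of another gene. In 46 long genes such an overlap was on the same strand, where reads cannot be assigned to either with certainty. In 222 it was on the opposite strand, where this depends on the strand setting of the counts, which is not given. The longest was Fgfr2, a fibroblast growth factor receptor, but 2815492 of its 2960899 bases were a single gap between exon blocks.

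Promoters of the long genes were rich in G, C and CpG. RefSeq starts on GRCm38.p6 were matched for 514 of the 674, and the 250 bases before the start had a median of 62.8% GC and 18 CpG. The 2634 matched genes of 10 to 30 kb had 59.6% and 16, and all 27025 RefSeq promoters had 52% and 6. The hexamer GGGCGG, or CCGCCC on the other strand, was found in 62.8% of long, 62.6% of shorter and 32.9% of all promoters. TATAAA on either strand was found in 6.42%, 5.50% and 13%. The 250 bases before the start are printed for Slc7a11 and Kank1, the 2 matched genes that fell the furthest with both drugs against CFZ, and for Itgbl1 and Adamts2, which rose the most. Capitals mark GGGCGG and CCGCCC, and a match is a run of letters and not a known site. The windows are chr3:50443614-50443863, minus strand, chr19:25236725-25236974, plus strand, chr14:123659890-123660139, plus strand and chr11:50601835-50602084, plus strand, in that order, each read 5′ to 3′ along its gene.
Slc7a11: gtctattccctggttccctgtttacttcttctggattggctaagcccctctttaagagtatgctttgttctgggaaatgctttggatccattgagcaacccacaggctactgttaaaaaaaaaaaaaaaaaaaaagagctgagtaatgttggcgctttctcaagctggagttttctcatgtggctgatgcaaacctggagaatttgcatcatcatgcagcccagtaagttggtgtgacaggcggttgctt
Kank1: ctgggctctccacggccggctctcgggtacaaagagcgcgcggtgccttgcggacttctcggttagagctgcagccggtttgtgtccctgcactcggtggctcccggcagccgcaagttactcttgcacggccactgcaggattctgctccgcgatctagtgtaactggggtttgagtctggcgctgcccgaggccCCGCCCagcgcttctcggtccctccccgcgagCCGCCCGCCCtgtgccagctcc
Itgbl1: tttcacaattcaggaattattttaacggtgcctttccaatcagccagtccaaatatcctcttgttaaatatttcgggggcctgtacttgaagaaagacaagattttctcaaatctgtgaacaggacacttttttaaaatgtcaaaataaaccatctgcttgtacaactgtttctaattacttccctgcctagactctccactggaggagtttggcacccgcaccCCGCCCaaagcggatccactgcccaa
Adamts2: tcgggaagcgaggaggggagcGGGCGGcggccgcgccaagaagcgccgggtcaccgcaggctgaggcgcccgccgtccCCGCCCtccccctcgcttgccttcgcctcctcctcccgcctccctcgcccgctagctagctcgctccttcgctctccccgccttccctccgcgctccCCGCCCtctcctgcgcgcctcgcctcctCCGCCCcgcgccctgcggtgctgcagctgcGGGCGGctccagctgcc
The Slc7a11 window held 43.2% GC, 2 CpG and no copy, and the Kank1 window 67.6% GC, 24 CpG and 3 copies. Of the genes that rose, Itgbl1 had 42.4% GC, 5 CpG and 1 copy, and Adamts2 78% GC, 34 CpG and 5 copies. A CpG-poor and a CpG-rich promoter thus stood at each end of the range.

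The 12 libraries held 28278879 to 42033993 counts. All 11 fibroblast markers were at 5 CPM or more in the DMSO libraries, at 29835 to 39442 CPM in sum, while 5 markers each of endothelial cells, leukocytes and skeletal muscle summed to at most 2.12 CPM there. Epithelial markers summed to 67.6 to 103 CPM, nearly all from the keratin Krt14 (64.4, 79.9 and 98.7 CPM), and neuron markers to 16.2 to 23.7, nearly all from the tubulin Tubb3 (16.2, 22.3 and 23.7). In the CFZ-DOX libraries the same 2 sums were 97.1 to 135 and 13.8 to 16.9 CPM, and the leukocyte sum was 8.01 to 13.9, nearly all from Cd68 of lysosomes (7.88, 8.75 and 13.9). In the CFZ libraries the fibroblast markers summed to 21020 to 31469 CPM and in the CFZ-DOX libraries to 48471 to 83797. Not all of them were higher there: the growth factor receptor Pdgfra had 183, 136 and 109 CPM with CFZ and 26.1, 18.6 and 23.98 with CFZ-DOX. Pdgfrb had 255, 183 and 180 with DMSO, 57.1, 47.7 and 35.2 with CFZ and 43.8, 42.8 and 44.2 with CFZ-DOX, so the CFZ and CFZ-DOX libraries overlapped. The part of these differences in the results below was not tested. In earlier results of these data the libraries DOX 3 and CFZ-DOX 3 stood apart from the others of their group, so counts without both are given. Levels below are CPM with edgeR's TMM scaling, which do not correct for transcript length and are compared only within a gene. In bulk RNA, fewer cells and less RNA per cell cannot be told apart.

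With doxorubicin the long genes took a smaller share of all counts. They held 5.35, 5.06 and 4.9% of the counts in the DMSO libraries and 4.81, 4.66 and 4.62% in the CFZ libraries. With DOX the share was 3.31, 3.36 and 3.42%, and with CFZ-DOX it was 2.62, 2.67 and 2.46%. No DOX or CFZ-DOX library overlapped a DMSO or CFZ library, and the CFZ-DOX libraries lay below the DOX libraries. The CFZ libraries also lay below the DMSO libraries, by less. The genes were chosen on their DMSO level, so the DMSO shares are a description. The genes of 10 to 30 kb held 33.4 ± 0.324% in the DMSO, 34.0 ± 0.219% in the CFZ, 34.9 ± 0.099% in the DOX and 34.3 ± 0.404% in the CFZ-DOX libraries (SD, n = 3).

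**Figure D1:**
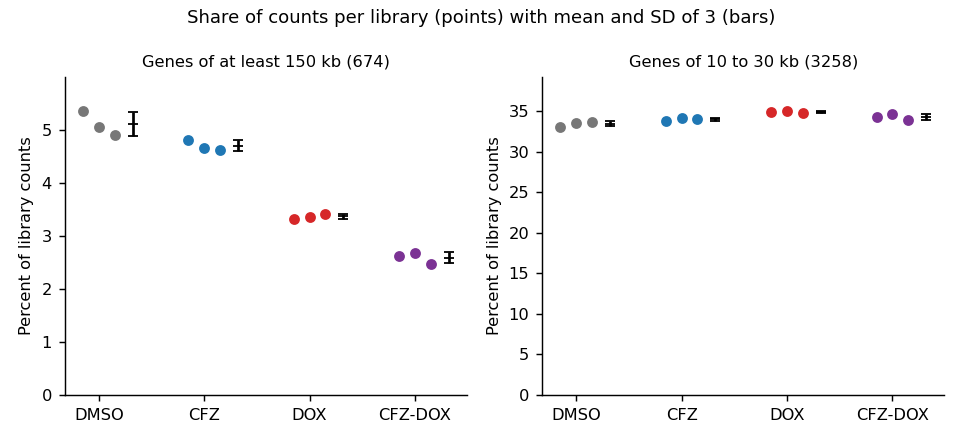
Percent of each library's counts in the 674 genes of at least 150 kb (left) and in the 3258 genes of 10 to 30 kb (right), with a point for each of 3 libraries per group and the group mean and SD beside them. The long genes go from 4.62 to 5.35% without doxorubicin to 2.46 to 3.42% with it, while the shorter genes stay within 33.1 to 35.0%.

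When doxorubicin was added to carfilzomib, most long genes fell. Of the 674, 496 (73.6%) fell and 64 (9.50%) rose against CFZ, and the change was 2-fold or more in 379 and 32 of these. A gene is said to fall or rise here when edgeR's quasi-likelihood F test, adjusted over all genes by Benjamini-Hochberg, gave p under 0.05. Over all 16648 genes tested 36.9% fell and 40.4% rose, over the 9835 at the same DMSO level 53.2% and 25.1%, and over the genes of 10 to 30 kb 49.5% and 27.1%. The median log2 fold change was −1.14 in the long genes, −0.39 in the genes of 10 to 30 kb and 0.09 in all genes. The difference between the medians of long and shorter genes was −0.76. In each library the median log2 CPM of long genes minus that of shorter genes was also taken. It had an SD between libraries of 0.043 (CFZ) and 0.084 (CFZ-DOX), which is a spread of levels and not of the −0.76. The 3 CFZ-DOX libraries did not overlap the 3 CFZ libraries in 506 long genes that were lower (75.1%) and 58 that were higher (8.61%). These shares were 38.0% and 39.8% over all genes tested. They were 54.3% and 24.5% at the same DMSO level and 50.7% and 26.6% in the genes of 10 to 30 kb. Without DOX 3 and CFZ-DOX 3, 500 fell and 90 rose.

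How many single genes fell or rose depended on how libraries were scaled. Scaling on 77 ribosomal protein genes moved the median over all genes tested by −1.54 log2 units, upper-quartile scaling by 0.54 and library totals by −0.26. Under upper-quartile scaling 390 long genes fell and 124 rose, and under ribosomal protein scaling 650 fell and 2 rose. In all 5 scalings 390 long genes (57.9%) fell, against 32.5% of the genes of 10 to 30 kb and 25.3% of all genes. Only Arsb and Itgbl1 (0.297%) rose in all 5, against 1.57% of the genes of 10 to 30 kb and 13.4% of all genes. A scaling shifts all genes of a library alike, so by construction the difference between the medians of long and shorter genes can change only little. The model is refitted under each scaling, and the shift of the fold change is not exactly equal in all genes.

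**Figure D2:**
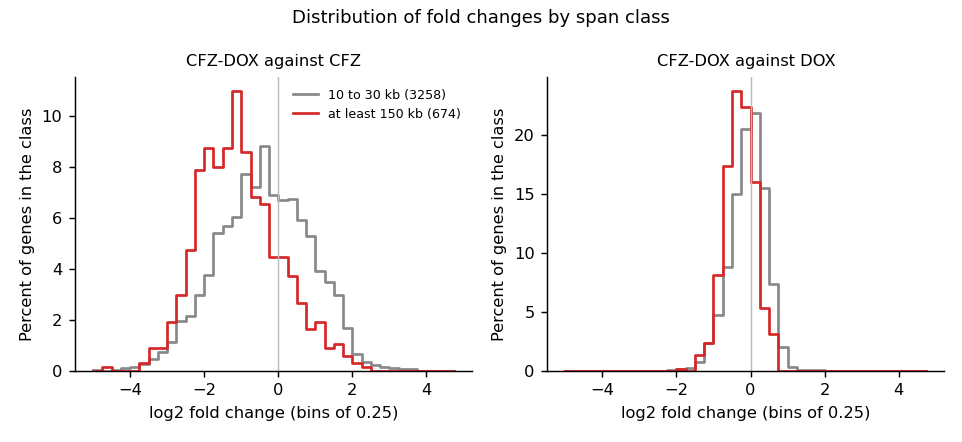
Percent of genes in bins of 0.25 log2 units for CFZ-DOX against CFZ (left) and against DOX (right), with genes of at least 150 kb in red and genes of 10 to 30 kb in grey. The red curve lies to the left of the grey one in both panels, with medians of −1.14 and −0.39 on the left and −0.29 and −0.04 on the right.

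The fold change went down step by step with span up to about 300 kb. Among genes at 5 CPM or more in DMSO, the median log2 fold change of CFZ-DOX against CFZ was 0.13 under 10 kb, −0.39 at 10 to 30 kb, −0.74 at 30 to 75 kb, −0.94 at 75 to 150 kb, −1.17 at 150 to 300 kb and −1.07 over 300 kb. Spearman's rank correlation of span and fold change was −0.28 across the 9835 genes and −0.01 across the 674 long genes, which are no replicates of each other and share the same libraries. Beyond 150 kb, then, more span did not go with a lower value. DOX against DMSO gave the same order of medians, from 0.12 under 10 kb to −0.89 at 150 to 300 kb. CFZ against DMSO stayed between −0.13 and 0.06 in all 6 classes.

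**Figure D3:**
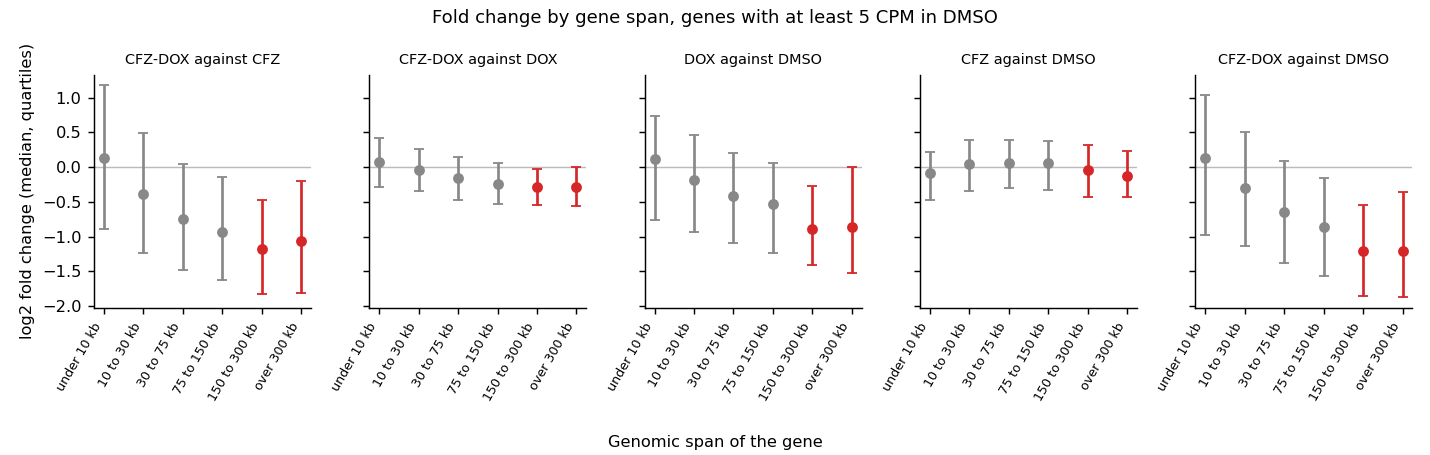
Median log2 fold change with quartiles by gene span in 5 comparisons, for genes with at least 5 CPM in DMSO, with the 2 classes of at least 150 kb in red. The medians fall with span up to 300 kb in the 4 comparisons whose first group had doxorubicin and stay between −0.13 and 0.06 in CFZ against DMSO.

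Longer genes also have longer transcripts, so the comparison was repeated within classes of exon length. At 3 to 6 kb of exon the medians for CFZ-DOX against CFZ were −1.07 in 118 long genes and −0.41 in 1766 genes of 10 to 30 kb. At 6 to 9 kb they were −1.0 (175 genes) and −0.54 (605), and at 9 to 12 kb −1.14 (138) and −0.77 (127). Over 12 kb they were −1.37 (222) and −0.81 (21). The long genes were lower in each of these 4 classes, by less than without the classes. Under 3 kb, with only 21 long genes, the medians were −0.00 and −0.06. With exons of 6 to 12 kb alone, the difference between the medians was −0.45 in place of −0.76.

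**Figure D4:**
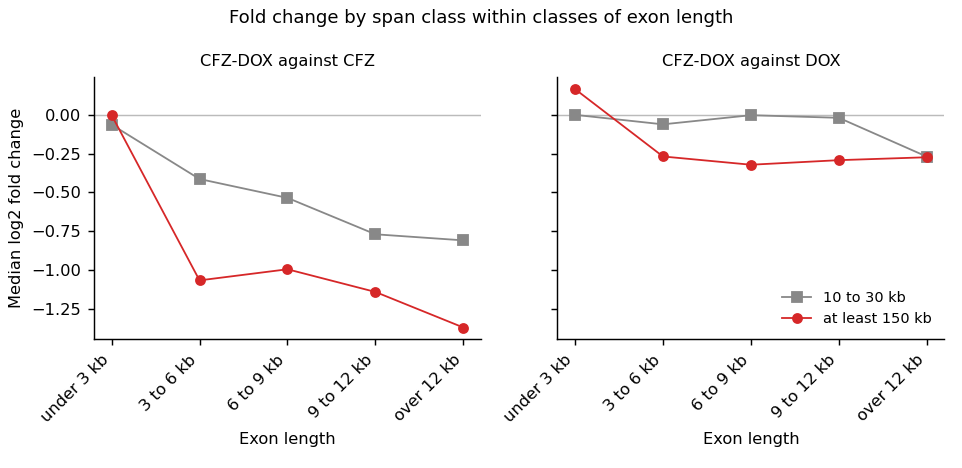
Median log2 fold change by exon length for CFZ-DOX against CFZ (left) and against DOX (right), in genes of at least 150 kb (red circles) and of 10 to 30 kb (grey squares). On the left the long genes lie below the shorter ones from 3 kb of exon upwards, and the class under 3 kb holds 21 long genes. On the right they lie below from 3 to 12 kb. Over 12 kb the medians there are nearly equal (−0.273 and −0.269), and under 3 kb the long genes are higher (0.167 and 0.001).

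Slc7a11, the transport subunit of the cystine/glutamate exchanger, fell the most of all long genes (ENSMUSG00000027737, GRCm39 chromosome 3, 49846975 to 50398063, minus strand, 551 kb). It stood at 38.9, 52.2 and 52 CPM in the DMSO libraries 1 to 3, 446, 482 and 512 with CFZ, 19.6, 21.4 and 17.6 with DOX and 17.5, 19.2 and 22.5 with CFZ-DOX. CFZ alone was 10.06-fold above DMSO in the fit, and the DOX and CFZ-DOX libraries were below every DMSO library. The fall with both drugs against CFZ was 24.3-fold (log2 fold change −4.60, SE 0.17, edgeR adjusted p = 1.11e-09). The gap to CFZ is thus made of a level above DMSO with CFZ alone and one below DMSO with both drugs.

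Thrb, the thyroid hormone receptor beta, stood at 7.93, 5.58 and 3.89 CPM in the DMSO libraries 1 to 3, 16.1, 13.7 and 12.4 with CFZ, 1.25, 1.44 and 3.06 with DOX and 0.754, 1.01 and 1.56 with CFZ-DOX. It fell with both drugs (log2 fold change −3.65, SE 0.38, edgeR adjusted p = 8.21e-07), and like Slc7a11 it was higher in every CFZ library than in any DMSO library. Kank1, an ankyrin-repeat protein of the cell cortex (ENSMUSG00000032702, GRCm39 chromosome 19, 25214339 to 25411860, plus strand), had 58.3, 45.2 and 45.5 CPM in the DMSO libraries 1 to 3, 72.6, 58.8 and 58.8 with CFZ, 7.72, 5.29 and 13.5 with DOX and 4.96, 3.6 and 8.15 with CFZ-DOX. Its DMSO and CFZ libraries lay above all 6 libraries with doxorubicin (CFZ-DOX against CFZ, log2 fold change −3.50, SE 0.33, edgeR adjusted p = 3.47e-07). Arhgap32, a GTPase-activating protein, was almost equal in DMSO and CFZ: it had 65.1, 62.2 and 56.4 CPM in the DMSO libraries 1 to 3, 63.4, 62 and 66 with CFZ, 7.07, 9.02 and 13.1 with DOX and 5.53, 4.98 and 6.93 with CFZ-DOX. It fell by 3.45 on the log2 scale (SE 0.21, edgeR adjusted p = 8.00e-09).

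Of the other lowest genes, Sash1, a signalling scaffold, stood at 92.1, 61.9 and 58.1 CPM with DMSO, 299, 198 and 201 with CFZ and 22.6, 13.2 and 27.9 with CFZ-DOX (log2 fold change against CFZ −3.45). Btbd3 (log2 fold change −3.45) and Kif16b, a kinesin of early endosomes (−3.43), followed. Pdgfc, a platelet-derived growth factor, had 72.6, 73.6 and 77.8 CPM with CFZ, 13.3, 16.5 and 17.2 with DOX and 6.9, 6.07 and 9.61 with CFZ-DOX, so that the 2 doxorubicin groups did not overlap either. Gab2, a docking protein of receptor signalling (−3.29), and Erc1, a scaffold of the cell cortex and of vesicle sites (−3.20), closed the list of 10. The edgeR adjusted p of these 6 genes lay between 1.60e-09 and 2.57e-07.

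**Figure D5:**
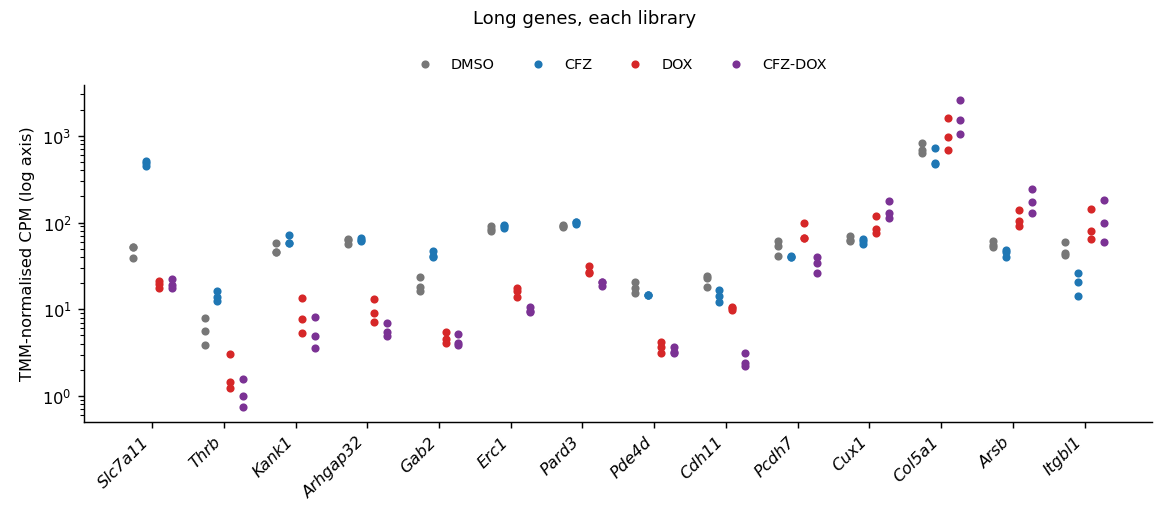
TMM-normalised CPM on a log axis for 14 long genes, with a point for each of 3 libraries per group. For the 8 genes on the left, from Slc7a11 to Pde4d, every library with doxorubicin lies below every library without it. For Arsb every library with doxorubicin lies above every library without it, while DOX 3 of Col5a1 and CFZ-DOX 3 of Itgbl1 lie within the DMSO range.

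Of the long genes that rose against CFZ, only Itgbl1 and Arsb did so in every scaling. Itgbl1, an integrin beta-like secreted protein, stood at 59.6, 44.3 and 41.7 CPM in the DMSO libraries 1 to 3, 26, 20.7 and 14.4 with CFZ, 144, 79.3 and 64 with DOX and 183, 98.3 and 59.5 with CFZ-DOX. It rose in all 5 scalings, and in the TMM fit by 2.48 on the log2 scale (SE 0.39, edgeR adjusted p = 6.32e-05). Its lowest library with doxorubicin, CFZ-DOX 3 at 59.5, was just below its highest DMSO library. Arsb, the lysosomal arylsulfatase B (ENSMUSG00000042082, GRCm39 chromosome 13, 93908138 to 94079524, plus strand), had 60.9, 55.2 and 52.8 CPM in the DMSO libraries 1 to 3, 47.9, 45.4 and 40.5 with CFZ, 138, 105 and 90.2 with DOX and 242, 174 and 129 with CFZ-DOX, and all 6 libraries with doxorubicin lay above all 6 without it (CFZ-DOX against CFZ, log2 fold change 2.03, SE 0.21, edgeR adjusted p = 7.83e-07).

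The other 8 of the 10 highest rose in the TMM fit but not in all 5 scalings. They were Adamts2, the procollagen N-proteinase (2.09), Limch1 (1.80), the collagens Col11a1 (1.76), Col4a6 (1.76), Col5a1 (1.61) and Col4a5 (1.54), the peptidase Cpq (1.75) and Gse1 (1.57), as log2 fold changes against CFZ. Under ribosomal protein scaling the 6 besides Col5a1 and Col4a5 did not pass the test, and those 2 changed sign (−0.018 and −0.089). Col5a1, a chain of type V collagen, had 836, 628 and 677 CPM with DMSO, 722, 483 and 474 with CFZ, 1586, 975 and 688 with DOX and 2559.6, 1508 and 1052 with CFZ-DOX. In each of the 4 groups its first library was the highest, and with doxorubicin replicate 1 was over 2 times replicate 3. Adamts2 showed the same, with 271, 120.3 and 113 CPM in the DOX and 458, 186 and 145 in the CFZ-DOX libraries. Limch1 was different: its CFZ libraries (1.04, 1.66 and 2.73 CPM) lay below DMSO (5.97, 5.88 and 7.33), and its CFZ-DOX libraries (6.25, 7.77 and 4.89) overlapped DMSO.

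When carfilzomib was added to doxorubicin, fewer long genes changed, and most of those fell. Of the 674, 164 (24.3%) fell and 13 (1.93%) rose against DOX, by 2-fold or more in 24 and 0 of these. Over all genes tested 12% fell and 10.3% rose, over those at the same DMSO level 18.2% and 9.2%, and over the genes of 10 to 30 kb 14.8% and 8.9%. The 3 CFZ-DOX libraries lay below the 3 DOX libraries in 208 long genes and above them in 23, against 15.5% and 16.1% of all genes tested. The median log2 fold changes were −0.29 in the long genes and −0.04 in the genes of 10 to 30 kb. Same-numbered libraries of the 2 groups deviated together (r = 0.58, 0.35 and 0.65), and a fit with the replicate block gave 237 that fell and 25 that rose. Fitted to these 6 libraries alone, 6.68% of the long genes fell and 0 rose. Rises ranged from 0.59% of long genes without CFZ-DOX 1, and 0.74% without DOX 2, CFZ-DOX 2 or DOX 3, to 3.26% without CFZ-DOX 3. Shares of other genes with the block and in these 6 libraries alone are not given here. In all 5 scalings 119 long genes (17.7%) fell and 0 rose. Of the genes of 10 to 30 kb 9.98% fell and 0.0614% rose in all 5, and of all genes tested 8.34% and 0.763%.

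Cdh11, a cadherin of mesenchymal cells, fell the most against DOX. It stood at 22.6, 18.1 and 24.2 CPM in the DMSO libraries 1 to 3, 16.6, 12.1 and 14.3 with CFZ, 9.8, 10.2 and 10.8 with DOX and 2.41, 2.23 and 3.09 with CFZ-DOX, so each treatment was below DMSO and CFZ-DOX was below all others (log2 fold change −1.99, SE 0.19, edgeR adjusted p = 2.89e-05). Adgrl3, a latrophilin receptor, had 1.65, 2.29 and 1.69 CPM with DOX and 0.539, 0.972 and 0.543 with CFZ-DOX (log2 fold change −1.46), and Brinp1 had 3.2, 2.69 and 5.53 and 0.97, 1.09 and 2.07 (−1.46). In both genes every treated library was below every DMSO library.

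In another 3 genes the DOX libraries overlapped DMSO, and the CFZ-DOX libraries lay below those of every other group. Ube2e2, a ubiquitin-conjugating enzyme, had 19.9, 18.4 and 16.8 CPM in the DMSO libraries 1 to 3, 14.7, 14 and 14.3 with CFZ, 21.2, 21.2 and 12 with DOX and 7.94, 8.54 and 3.8 with CFZ-DOX (CFZ-DOX against DOX, log2 fold change −1.42, SE 0.27, edgeR adjusted p = 0.0028). Pcca, the alpha subunit of propionyl-CoA carboxylase, had 23, 18.2 and 20.5 CPM with DMSO, 25.2, 21.5 and 17.1 with DOX and 10.02, 9.43 and 4.82 with CFZ-DOX (log2 fold change −1.40). Chst11, a chondroitin sulfotransferase, had 124, 88.4 and 69.9, 98.1, 56.6 and 52.7 and 37, 23.2 and 19.3 in the same groups (−1.38). Whether the DOX and CFZ effects add was not tested here.

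The highest values against DOX were small, and each depended on the scaling. Supt3, a subunit of the SAGA coactivator, had 12, 13.2 and 8.04 CPM with DOX and 19.4, 20.1 and 13.7 with CFZ-DOX (log2 fold change 0.68, SE 0.21, edgeR adjusted p = 0.03). Smg6, an endonuclease of nonsense-mediated decay (0.64), Gucd1 (0.63), the NKG2D ligand Raet1e (0.56), Ctnnbl1, a protein of the spliceosome (0.56), and the long noncoding RNA Pvt1 (0.48) followed as log2 fold changes. All 6 were below 0 under ribosomal protein scaling and missed the test when fitted to the 6 libraries alone. Pvt1 and Raet1e have exons that overlap another gene on the same strand, where reads could be split.

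Adhesion, matrix and guidance genes had the median nearest to 0 of the lists of long genes against CFZ. The lists below were chosen by role with earlier results known and are described by counts and medians of log2 fold changes of CFZ-DOX against CFZ, beside a median of −1.14 for all long genes and 0.09 for all genes tested. Of all long genes 73.6% fell and 9.50% rose, and of all genes tested 36.9% and 40.4%. No difference between a list and the other long genes was tested. Of 35 adhesion and matrix genes 17 fell (48.6%) and 5 rose (14.3%), with a median of −0.32. The lowest were Cdh11 (−2.47), Pard3 (−2.33) and Fndc3b (−2.30), where Pard3 is a polarity protein. Pard3 had 88.7, 92.4 and 90.2 CPM with DMSO, 95.2, 101 and 102 with CFZ, 26.8, 26.1 and 31.6 with DOX and 20.4, 18.4 and 20.6 with CFZ-DOX. The highest were the collagens Col5a1 and Col11a1 given above. Against DOX 10 of the 35 fell (28.6%) and 0 rose (median −0.43), beside 24.3% and 1.93% of all long genes and 12% and 10.3% of all genes tested.

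Of 75 signalling genes (kinases, phosphatases, GTPase regulators and receptors) 64 fell (85.3%) and 1 rose (1.33%), with a median of −1.44. Arhgap32 and Gab2 were the lowest, followed by Ror1, a receptor tyrosine kinase-like protein (−3.05), with 33.6, 36.4 and 28 CPM in the CFZ and 3.02, 4.57 and 4.24 in the CFZ-DOX libraries. The gene that rose was Arhgef28, a guanine nucleotide exchange factor (0.57), and under ribosomal protein scaling it fell (−0.99). Ghr, the growth hormone receptor, had a log2 fold change of 0.51 and did not pass the test (edgeR adjusted p = 0.051). Of 54 cytoskeletal and motor genes 39 fell (72.2%) and 4 rose (7.41%), with a median of −1.08. Kif16b, Filip1l (−2.99) and Clasp1, which binds microtubule plus ends (−2.40), were the lowest, and Limch1 and Parva, an actin-binding protein of focal adhesions (1.10, but −0.48 under ribosomal protein scaling), the highest.

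Of 79 transcription and chromatin genes 63 fell (79.7%) and 4 rose (5.06%), with a median of −1.22. Thrb, Aff1, a scaffold of elongation complexes (−3.19), and Zmiz1 (−3.08) were the lowest. Aff1 stood at 65.7, 58.7 and 55.4 CPM in the DMSO libraries 1 to 3, 272, 232 and 219 with CFZ, 27.2, 26.6 and 41 with DOX and 22.8, 18.3 and 37.8 with CFZ-DOX, with every CFZ library at least 3 times any DMSO library. Cux1, a homeodomain factor, was the highest (1.18), with 65.4, 56.7 and 61.4 CPM in the CFZ and 176, 128 and 112 in the CFZ-DOX libraries, followed by Camta1 (0.90), and both fell under ribosomal protein scaling (−0.40 and −0.67). RNA-binding genes fell in 12 of 15 (80%, median −1.0), with Rbfox2 (−2.14), Fto (−2.06) and Rbms1 (−1.84) the lowest. Rbfox2 is a splicing factor, and Fto is an RNA demethylase.

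Of 22 genes of ubiquitin and protein turnover 20 fell (90.9%) and 1 rose (4.55%), with a median of −1.56. They were led by Fbxl7 (−2.20), Birc6 (−2.20) and Usp34 (−2.05), an F-box protein, an inhibitor of apoptosis with ubiquitin-conjugating activity, and a deubiquitinase. Birc6 had 312, 282 and 253 CPM with CFZ and 56.9, 62.3 and 64.8 with CFZ-DOX. Wwox, a WW-domain oxidoreductase that spans 913 kb, was the one that rose (0.43), and under ribosomal protein scaling it fell (−1.14). Traffic, lipid and transport genes fell in 48 (78.7%) and rose in 5 (8.20%) of 61 (median −1.17), from Slc7a11, Gramd1b (−2.65) and Snx29 (−2.60) to Sorcs2, a sortilin-family receptor (0.80), and Slc39a11, a zinc transporter (1.04), which both fell under ribosomal protein scaling (−0.75 and −0.54). Of 15 genes of DNA repair and cell cycle 12 fell (80%) and 0 rose (median −0.81). Cdkal1, a tRNA-modifying enzyme that the list holds (−2.39), the cohesin loader Nipbl (−2.10) and the cohesin subunit Stag1 (−2.07) were the lowest. The 2 highest of the RNA-binding list, Celf2 and Eif4g3, the 2 highest of the repair list, Ino80d and Cdc14a, and Kctd1 of the ubiquitin list did not pass the test (edgeR adjusted p between 0.298 and 0.998). The 318 long genes in no list gave 221 falling (69.5%) and 44 rising (13.8%), with a median of −1.07.

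With DOX alone the long genes lay below DMSO in the same range. The median log2 fold change was −0.88 against −0.18 in the genes of 10 to 30 kb, and 451 long genes (66.9%) were called lower and 47 (6.97%) higher, beside 31.3% and 36.1% of all genes tested, 45% and 23.3% at the same DMSO level and 41.5% and 26% of the genes of 10 to 30 kb. The members were chosen on these DMSO libraries, so nothing is read from these counts. Calls of higher long genes came to 2.67% without DOX 1, 3.56% without DMSO 2 or DMSO 3 and 11.1% without DOX 3. Among the lowest were Asap1, an Arf GTPase-activating protein (−3.38), Filip1l (−3.31), Fgd4, an exchange factor for Cdc42 (−3.21), and Phlpp1, a phosphatase of Akt (−3.05). Asap1 went from 322, 298 and 274 CPM with DMSO to 26, 29.2 and 30.9 with DOX and 29.5, 29.4 and 27.9 with CFZ-DOX. The highest were Adamts2 (1.25), Cpq (1.15) and Sema3c (1.03) and App, the amyloid precursor protein (1.0).

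Carfilzomib alone left the long genes near the DMSO level as a class. The median log2 fold change was −0.06, against 0.04 in the genes of 10 to 30 kb. Of the 674, 137 (20.3%) were called lower and 98 (14.5%) higher, beside 14.4% and 14.4% of all genes tested, 17.6% and 18.3% at the same DMSO level and 16.8% and 19.7% of the genes of 10 to 30 kb. Without CFZ 3 the lower calls were 12.8%, and fitted to the 6 libraries alone they were 36.9%, with 27.0% higher. The highest were Slc7a11 (3.33), Aff1 (2.01), Cemip, a hyaluronan-binding protein (1.73), and Sash1 (1.72). The lowest were Aff3 (−2.76), Hivep3 (−2.18), Cacna1a (−2.16) and Maml3 (−1.99), of which Cacna1a is a calcium channel subunit and Maml3 a Notch coactivator. Hivep3 went from 56.1, 50.8 and 51.1 CPM to 12.9, 11.8 and 10.1.

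With both drugs the median against DMSO was −1.21 in the long genes and −0.30 in the genes of 10 to 30 kb. Calls were 509 lower (75.5%) and 52 higher (7.72%), beside 35.7% and 39.3% of all genes tested, 51.6% and 24.3% at the same DMSO level and 46.1% and 27.4% of the genes of 10 to 30 kb. The lowest were Ror1 (−3.78), Btbd3 (−3.64), Brinp1 (−3.51) and Filip1l (−3.49), and the highest Adamts2 (1.90), Cpq (1.87), Arsb (1.69) and App (1.55). The DMSO libraries are shared by these comparisons, so their values are not independent.

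The 6 longest genes differed in direction in the TMM fit, and under ribosomal protein scaling all 6 were below 0. Pde4d, a cyclic AMP phosphodiesterase of 1504 kb, had 20.7, 17.6 and 15.2 CPM in the DMSO libraries 1 to 3, 14.6, 14.7 and 14.4 with CFZ, 3.17, 3.67 and 4.19 with DOX and 3.7, 3.16 and 3.19 with CFZ-DOX and fell with both drugs against CFZ (log2 fold change −2.12, SE 0.18, edgeR adjusted p = 1.02e-07). Rbms3 (−0.94) and Nrg1, the growth factor neuregulin 1 (−1.31), fell too, and Sgcd, a sarcoglycan, rose (0.51, but −1.07 under ribosomal protein scaling). Opcml (−0.32) and Fgfr2 (0.07) did not pass the test (edgeR adjusted p = 0.58 and 0.7). Fgfr2 had 25.6, 23.7 and 25.7 CPM in the DMSO libraries 1 to 3, 23.2, 19.1 and 19 with CFZ, 25.6, 29.5 and 34.2 with DOX and 20.6, 17.9 and 26 with CFZ-DOX, and its CFZ-DOX libraries overlapped those of each other group. The 3 long genes most like Fgfr2 over the 12 libraries, by Pearson's r of log2 CPM, were Pcdh7 (r = 0.86), Kcnk2 (0.81) and Kctd1 (0.81). Pcdh7, a protocadherin, had 66.7, 66.1 and 99.9 CPM with DOX and 34.2, 26.2 and 39.6 with CFZ-DOX.

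The 6 most abundant long genes were mixed as well, and also all below 0 under ribosomal protein scaling. Mbnl1, a splicing regulator, fell against CFZ (−0.79) and App and Col5a1 rose (1.45 and 1.61, but −0.16 and −0.018 under ribosomal protein scaling). Sptbn1, a spectrin (−0.38), Fbn1, the matrix protein fibrillin 1 (0.25), and Cald1, the actin-binding protein caldesmon (0.21), did not pass the test (edgeR adjusted p between 0.13 and 0.49). Sptbn1 had 1149, 1058 and 1004 CPM in the DMSO libraries 1 to 3, 1132, 1056 and 1017 with CFZ, 1070.0, 889.8 and 629 with DOX and 974, 933 and 554 with CFZ-DOX. Replicate 3 was the lowest with DOX and with CFZ-DOX in Mbnl1, Fbn1, Sptbn1 and Cald1.

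Genes of topoisomerases and transcription elongation, of which only Aff1 and Mllt3 are long genes, were read beside them. Of 47, 33 fell (70.2%) and 7 rose (14.9%) in CFZ-DOX against CFZ, beside 36.9% and 40.4% of all genes tested. Over genes with at least 5 CPM in DMSO, a level that all 47 reached, it was 53.2% and 25.1%. Top2a, topoisomerase II alpha, had 503, 614 and 498 CPM in the DMSO libraries 1 to 3, 332, 315 and 296 with CFZ, 197, 232 and 147 with DOX and 46.7, 59.3 and 49.9 with CFZ-DOX (log2 fold change −2.60, SE 0.18, edgeR adjusted p = 2.09e-08). Top2b, the beta form, had 137, 135 and 154 CPM with CFZ and 68.5, 66.2 and 66.2 with CFZ-DOX (log2 fold change −1.08). Top1 did not pass the test (log2 fold change −0.33, SE 0.14, edgeR adjusted p = 0.0503). Among elongation genes Nelfa (−2.43), Setd2 (−2.21) and Cdc73 (−2.20) fell. The elongation genes named here and in the next sentence are examples near the ends of the list, whose median was −0.91. Not every gene of the complexes of Nelfa and Cdc73 fell. Polr2a, the largest subunit of RNA polymerase II, rose (1.48, but −0.054 under ribosomal protein scaling), as did Hexim1, an inhibitor of the elongation kinase P-TEFb (2.24). The part of these genes in the values of the long genes was not tested.

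Introns of 496 long genes held 1617 other gene IDs. Those under 1 CPM in DMSO, on the host's strand and nearer to its start than to its end, numbered 480 and summed to 9.15, 10.4 and 9.25 CPM of the library total in the DMSO libraries, 8.16, 10.9 and 8.73 with CFZ, 12.3, 14.2 and 14.9 with DOX and 15.03, 24.996 and 21.8 with CFZ-DOX. Nearer to the end, 438 such IDs summed to 12.7, 16.2 and 16.9 CPM with CFZ and to 21.1, 30.5 and 30.8 with CFZ-DOX. Both sums were higher in every CFZ-DOX than in any CFZ library. In genes of 10 to 30 kb the sums for the host's strand nearer to the start overlapped (15.2, 14.8 and 16.5 CPM with CFZ, 10.4, 14.3 and 21.5 with CFZ-DOX). Nearer to the end of these shorter genes the sums went down, from 21.8, 19.5 and 21.1 CPM with CFZ to 11.5, 13.015 and 18.4 with CFZ-DOX. On the opposite strand the sums were 5.70, 8.97 and 7.81 CPM with CFZ and 18.7, 23.03 and 23.02 with CFZ-DOX for the 354 IDs nearer to the start, and in genes of 10 to 30 kb the like sums did not overlap either (13.2, 12.3 and 13.3 with CFZ, 19.4, 22.8 and 31.6 with CFZ-DOX). For the 298 opposite-strand IDs nearer to the end of a long gene they were 8.77, 9.98 and 10.4 CPM with CFZ and 17.2, 20.4 and 25.7 with CFZ-DOX. There the sums in genes of 10 to 30 kb overlapped (13.4, 10.0 and 13.6 with CFZ, 7.25, 13.2 and 17.1 with CFZ-DOX). With IDs of every level counted, the 451 on the host's strand nearer to the end of a long gene went the other way, from 248, 238 and 247 CPM with CFZ to 180, 185 and 184 with CFZ-DOX. The IDs under 1 CPM were chosen for low counts in DMSO, and whether their reads come from the host was not tested. Nor was it tested whether IDs at such a level outside introns rose alike.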

How the data were processed

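Polyadenylated RNA of 12 NIH/3T3 libraries was analysed, with groups and replicate numbers from the sample titles. Raw counts per Ensembl gene were deposited by the authors as 1 table, which also gives exon coordinates, strand and exon length. The tools were STAR 2.7.9a, Trimmomatic 0.39 and featureCounts (Subread 2.0.2), and the build GRCm39, per the submitters' processing notes. The annotation release, the strand setting and the handling of read pairs are not given in the sources used here. Symbols came from the reference names, which matched 91.4% of gene IDs.

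Span and exon features were computed from the table. Counts were tested with edgeR 4.0.16 in R 4.3.3 (filterByExpr with a minimum count of 10 and a minimum total of 15, TMM, quasi-likelihood F test, 1 model of 12 libraries, prior count 0.125, Benjamini-Hochberg over 16648 genes). SE was computed as the size of the log2 fold change over the square root of its F. Library totals of 28278879 to 42033993 set the precision. Alternatives were 4 other scalings, DESeq2 1.42.0, limma-voom 3.58.1, other filters, the replicate block, each library left out, and other limits of span and level. Same-numbered libraries deviated together in every pair (r over 0.1) for CFZ and DMSO (0.38, 0.30 and 0.42), DOX and DMSO (0.25, 0.26 and 0.21) and CFZ-DOX and DOX (0.58, 0.35 and 0.65). This pairing comes from the data.

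The long genes, the role lists and the tests were chosen with earlier results of these data known, and 4 alternatives (without DOX 3 and CFZ-DOX 3, long genes also over 150 kb in GENCODE M21, no exon overlap, exons of 6 to 12 kb) were added after seeing the data. The text names the 10 lowest and 10 highest called long genes without overlap between groups for CFZ-DOX against CFZ, 6 and 6 in its comparison with DOX, 4 and 4 in each with DMSO, the 6 longest, the 6 most abundant, and of each list the 3 lowest and 2 highest. Topoisomerase and elongation genes that are not long genes are named as examples, by no rule of rank, and several lie near an end of their list. Promoters are RefSeq sequences of GRCm38.p6, and no coordinate was converted between builds.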

Additional observations from a re-analysis of the deposited data

How the results depend on the processing

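Of the 60 genes named for CFZ-DOX against CFZ that passed the test, 12 changed sign under an alternative, each under ribosomal protein scaling alone: Col5a1 (−0.018), Parva (−0.48), Arhgef28 (−0.99), Camta1 (−0.67), Cux1 (−0.40), Wwox (−1.14), Sorcs2 (−0.75), Slc39a11 (−0.54), Sgcd (−1.07), App (−0.16), Col4a5 (−0.089) and Polr2a (−0.054). That scaling also turned Pvt1 (−0.28), Ctnnbl1 (−0.21), Raet1e (−0.22), Gucd1 (−0.15), Smg6 (−0.12) and Supt3 (−0.084) in CFZ-DOX against DOX and App (−0.15) in CFZ-DOX against DMSO, in log2 units. The cause was not tested.

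All 12 named genes that did not pass the test in CFZ-DOX against CFZ took the other sign under at least 1 alternative, and no direction is given for them. With median-of-ratios scaling these were Celf2 (0.014), Kctd1 (0.027) and Ino80d (0.072). With library totals these were Eif4g3 (−0.30), Fgfr2 (−0.15), Fbn1 (−0.078) and Cald1 (−0.091). With upper-quartile scaling these were Celf2 (0.48), Kctd1 (0.48), Ino80d (0.52), Opcml (0.22), Sptbn1 (0.17) and Top1 (0.22). With ribosomal protein scaling these were Ghr (−1.08), Eif4g3 (−1.59), Cdc14a (−1.20), Fgfr2 (−1.46), Fbn1 (−1.37) and Cald1 (−1.38). With a filter of 1 CPM these were Celf2 (0.14), Kctd1 (0.16) and Ino80d (0.20). With the replicate block this was Eif4g3 (−0.056). In the 6 libraries alone these were Celf2 (0.078), Kctd1 (0.088) and Ino80d (0.13). Without DOX 3 and CFZ-DOX 3 these were Celf2 (0.17), Cdc14a (−0.070), Opcml (0.073) and Fgfr2 (−0.11). With DESeq2 these were Celf2 (0.014), Kctd1 (0.027) and Ino80d (0.072). With limma-voom this was Eif4g3 (−0.059). With each library left out in turn, log2 values ranged from −0.049 to 0.43 (Cdc14a), −0.37 to 0.19 (Celf2), −0.21 to 0.24 (Eif4g3), −0.11 to 0.56 (Fbn1), −0.089 to 0.18 (Fgfr2), −0.18 to 0.073 (Ino80d), −0.21 to 0.010 (Kctd1) and −1.33 to 0.098 (Opcml).

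Of the calls in CFZ-DOX against DOX, lower long genes were 36.9% under library totals, 88.6% under ribosomal protein scaling and 6.68% in the 6 libraries alone, and higher ones 0.297, 0 and 0% there, 4.01% under upper-quartile scaling, 3.41% with a filter of 1 CPM, 3.71% with the replicate block, 3.26% without DOX 3 and CFZ-DOX 3, 4.30% with DESeq2 and 1.20% without exon overlap. Higher long genes in CFZ-DOX against CFZ were 18.4% (upper quartile) and 0.297% (ribosomal). In DOX against DMSO they were 15.7% and 0%, and 11.1% without DOX 3 and CFZ-DOX 3. In CFZ-DOX against DMSO they were 4.01% (library totals), 14.4% (upper quartile) and 0% (ribosomal). In CFZ against DMSO they were 9.35% (library totals), 7.86% (ribosomal) and 27.0% in the 6 libraries alone, where lower ones were 36.9%.

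The difference between the medians of long and shorter genes moved to −0.68, −0.53 and −0.78 with a span of 100 kb for CFZ-DOX against CFZ, DOX against DMSO and CFZ-DOX against DMSO. Beside genes of 30 to 75 kb it was −0.40, −0.47 and −0.55, and −0.13 for CFZ-DOX against DOX. With exons of 6 to 12 kb it was −0.45, −0.36 and −0.62, and −0.18 for CFZ against DMSO, and −0.61 for DOX against DMSO without exon overlap. Long genes differ in exon length and promoter from the genes beside them. Of these only exon length was matched, by classes, and promoter was not. Level was held only to a minimum and was not matched further.

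With each library left out in turn, lower and higher calls ranged from 71.8 to 73.9% and 7.27 to 11.9% (CFZ-DOX against CFZ), 18.8 to 27.2% and 0.594 to 3.26% (against DOX), 63.4 to 65.4% and 2.67 to 11.1% (DOX against DMSO), 12.8 to 16.2% and 9.94 to 11.9% (CFZ against DMSO) and 73.3 to 76.4% and 5.34 to 9.35% (CFZ-DOX against DMSO). The median differences ranged from −0.77 to −0.74, −0.28 to −0.19, −0.73 to −0.65, −0.13 to −0.06 and −0.95 to −0.85. The replicate number as a block moved no other count of calls by over 1.5 times.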
